A study of Mus musculus with 9 samples.

Results

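Cirbp and Rbm3, which encode the cold-inducible RNA-binding proteins, and Clk1, Clk2, Clk3 and Clk4, the temperature-sensing CDC-like kinases, were followed in mouse embryonic stem cells exposed to GSK3 inhibitors. The members were the rows of the raw count table with these gene symbols. All 6 were found among 52264 rows, and all 6 were among the 15366 genes that passed the filter on low counts. The list was chosen by the measured Cirbp fold changes, which had opposite signs under the inhibitors, so the Cirbp values are given as a description with no test. The other 5 genes were read as added for what they encode, and their tests are reported. The choice was made with earlier results of these data known, so these tests are not independent of it. The libraries came from embryonic stem cells (ESCs) with the genotype beta-catenin-/-, and every group, control included, carries this deletion. For expansion, per the labels, these cells received 3 µM CHIR-99021, 1 µM PD03 and 40 ng/ml LIF on dishes with feeder cells, so the controls had earlier seen the inhibitor that is tested. After a night in N2B27 medium the cells were left as control (treatment NONE in the labels), or received BRD0705 or CHIR, for 30 min. BRD0705 is an inhibitor selective for GSK3α, and CHIR inhibits both GSK3α and GSK3β. Each of the 3 groups held 3 libraries, and neither the doses of this exposure nor the number of clones is given in the labels. The labels describe no change of temperature. Nothing in the labels says whether the libraries of a group came from separate cultures, so p-values measure the spread between these libraries, which may be technical.

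Cirbp and Rbm3 are small proteins with a single RNA recognition motif and a glycine-rich tail, and their messages accumulate when mammalian cells are mildly cooled. They bind other messages and act on their stability, translation and polyadenylation. The Clk kinases sit in the nucleus and phosphorylate the arginine- and serine-rich domains of SR proteins, the factors that mark exons for splicing. Clk1 and Clk4 activity is known to rise as temperature falls, and the splicing of many exons follows it, including exons in Clk, Cirbp and Rbm3 transcripts themselves. Several of these genes are regulated through isoforms that keep an intron or are degraded by nonsense-mediated decay.

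The sequence upstream of the start site is shown for Cirbp, on which the list turns, and for Clk2 and Clk3, the members that rose with CHIR, from the RefSeq promoter table (GRCm38.p6). Of the 6 members, 4 had an entry, with 5 start sites. The capitals mark a match, on either strand, to TCCCCGCC, the published mild-cold-responsive element of Cirbp that the factor Sp1 binds, or to GGGCGG, the core of the GC box. No matches of the 2 motifs overlapped in these windows of 250 bases.
Cirbp, chr10:80167589-80167838, plus strand: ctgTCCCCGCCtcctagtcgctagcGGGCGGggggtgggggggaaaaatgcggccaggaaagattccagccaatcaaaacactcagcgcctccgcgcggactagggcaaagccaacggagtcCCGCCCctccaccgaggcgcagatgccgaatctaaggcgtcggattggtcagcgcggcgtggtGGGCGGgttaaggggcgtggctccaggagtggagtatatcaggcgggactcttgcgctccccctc
Clk2, chr3:89164545-89164794, plus strand: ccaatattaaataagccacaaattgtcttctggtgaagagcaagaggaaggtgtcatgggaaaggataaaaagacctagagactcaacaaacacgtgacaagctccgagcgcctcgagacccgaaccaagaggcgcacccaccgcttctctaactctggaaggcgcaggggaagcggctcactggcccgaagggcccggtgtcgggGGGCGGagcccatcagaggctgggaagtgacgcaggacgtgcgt
Clk3, chr9:57765115-57765364, minus strand: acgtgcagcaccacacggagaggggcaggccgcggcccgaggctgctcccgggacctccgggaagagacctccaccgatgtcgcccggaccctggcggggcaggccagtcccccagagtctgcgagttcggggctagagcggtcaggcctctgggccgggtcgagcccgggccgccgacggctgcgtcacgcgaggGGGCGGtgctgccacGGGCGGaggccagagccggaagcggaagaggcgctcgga

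The Cirbp and Clk3 windows lay inside the RefSeq spans of these genes, so the sequence upstream of those spans was not scanned. The mild-cold element was found once upstream of the first listed Cirbp start site, 247 to 240 bases before it (chr10:80167592-80167599). It was not found upstream of the second Cirbp start site, Clk2, Clk3 or Clk4. Of all 32851 promoter windows of this length, 4.64% held it. The GC box core occurred 3 times upstream of the first Cirbp start site, 4 times upstream of the second, 2 times upstream of Clk3 and 1 time upstream of Clk2 and of Clk4, and 32.7% of all windows held at least 1 copy. These matches describe the letters of the windows and were not tested against binding or expression.

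Total counts ran from 17359422 to 20773337 per library. The 10 pluripotency markers were present in every library, with summed levels of 5006 to 5105 CPM (counts scaled to the effective library total) in control, 5064 to 5210 with BRD0705 and 5195 to 5401 with CHIR. Feeder fibroblast markers were present too. None of the 12 was at 0, and their summed level was 2278 to 2727 CPM in control, 2886 to 2950 with BRD0705 and 2564 to 3083 with CHIR. Fewer cells of a type and less RNA per cell cannot be told apart in such bulk libraries. Across 14998 genes, which are not independent replicates, GC content and a library's departure from the mean level had a Spearman correlation of -0.29 to 0.19 in control, 0.056 to 0.26 with BRD0705 and -0.12 to -0.055 with CHIR.

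Levels per kilobase of the canonical GENCODE transcript placed Rbm3 first and Clk4 last in each group. In control, Rbm3 stood at 49.0 ± 2.50 CPM per kb, Clk2 at 39.2 ± 0.317, Clk1 at 31.9 ± 1.45, Cirbp at 22.6 ± 1.31, Clk3 at 12.8 ± 0.385 and Clk4 at 7.38 ± 0.526 (SD, n = 3 each). No neighbours in this order overlapped in control. With CHIR, Cirbp at 28.2 ± 1.26 CPM per kb passed Clk1 at 25.7 ± 1.66 (SD, n = 3 each), and the libraries of these genes overlapped. With BRD0705, Rbm3 at 45.02 ± 1.52 and Clk2 at 41.1 ± 2.96 CPM per kb overlapped (SD, n = 3 each). The scale depends on the transcript chosen, which for Rbm3 is 5007 bases long and for Cirbp 1321.

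Cirbp was lower with BRD0705 and higher with CHIR than in control. It stood at 30.2, 31.3 and 27.9 CPM in the control libraries, from 613, 647 and 567 counts. With BRD0705 the libraries held 23.2, 24.2 and 25.3 CPM. With CHIR they held 37.5, 35.4 and 38.7 CPM. The 3 groups did not overlap in any pair, and BRD0705 lay lowest and CHIR highest. Of all tested genes, 20.2% did not overlap between BRD0705 and control, 25.1% between CHIR and control and 26.7% between the inhibitors. Means of 3 libraries (± SD) were 29.8 ± 1.73 CPM for control, 24.2 ± 1.02 for BRD0705 and 37.2 ± 1.67 for CHIR. The fitted log2 fold change was -0.30 ± 0.07 for BRD0705 and 0.32 ± 0.07 for CHIR (SE), or 0.813 and 1.25 times the control level. These values chose the list and carry no test. After removal of library-specific trends with GC and transcript length they were -0.28 and 0.36. With the feeder markers as a covariate the values were -0.24 and 0.37.

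Rbm3 was the most abundant member, at percentile 95.1 of the tested genes, and its groups differed little. The control libraries held 231, 253 and 252 CPM. The BRD0705 libraries held 222, 220 and 234 CPM, and the CHIR libraries 279, 252 and 243 CPM. Control overlapped with each inhibitor group, while every BRD0705 library lay below every CHIR library. Against control, Rbm3 had a log2 fold change of -0.12 ± 0.06 with BRD0705 and 0.07 ± 0.06 with CHIR (SE; edgeR adjusted p 0.323 and 0.542). The 95% confidence intervals were -0.25 to 0.0021 and -0.05 to 0.20, and neither difference passed. The CHIR value was 0.0224 without CHIR replicate 1, 0.0372 without Control replicate 1 and 0.0325 with the feeder covariate, and the BRD0705 value was -0.0724 with the GC and length correction.

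**Figure D1:**
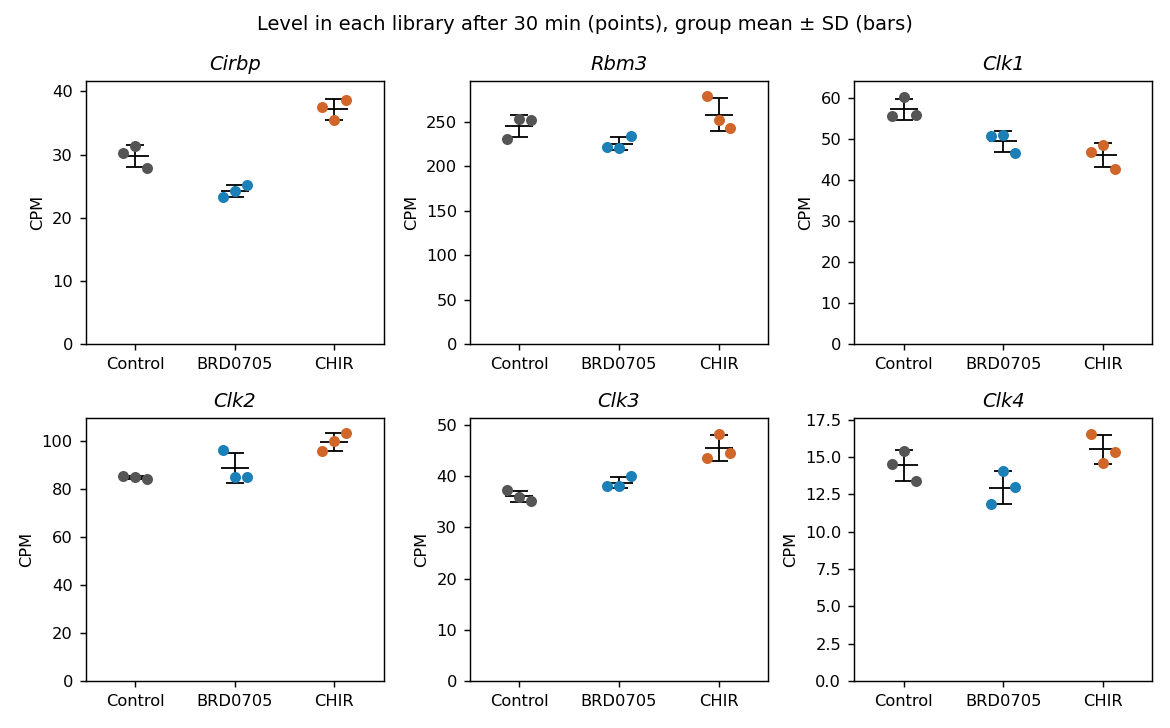
CPM of each member in each library (points), with the group mean and SD (black bars), by treatment group, on linear axes from 0. Cirbp separates into 3 levels, with BRD0705 lowest at 23.2 to 25.3 CPM and CHIR highest at 35.4 to 38.7 CPM, while Clk1 is highest in control.

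Comparing CHIR with control asks which of these genes differed after 30 min with this inhibitor of both GSK3 enzymes, whose activity was not measured in these libraries. Clk3 and Clk2 rose, Clk1 fell, and Clk4 and Rbm3 did not pass. In edgeR's quasi-likelihood fit, with p-values adjusted across all tested genes and a threshold of 0.05, 3 of the 5 genes other than Cirbp passed, against 6.30% of all tested genes. The same 3 had an unadjusted p under 0.05, against 20.5%. The 2 that rose stand against 2.52% and the 1 that fell against 3.78%. Libraries did not overlap for the same 3 genes, against 25.1% of all tested genes. The median log2 fold change of the 5 genes was 0.10, beside -0.0091 over all tested genes.

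Clk3 showed the largest fold change of the Clk genes under CHIR. Its control libraries held 37.2, 35.8 and 35.1 CPM. The CHIR libraries held 43.5, 48.3 and 44.4 CPM, all above control. The log2 fold change was 0.33 ± 0.06 (SE; 95% confidence interval 0.20 to 0.46; edgeR adjusted p 0.00311). Leaving out any 1 of the 9 libraries kept the call, and with the feeder markers as a covariate the log2 fold change was 0.30 and the adjusted p 0.0580. All 12 feeder markers were above control with CHIR, and their part in the result was not tested beyond that covariate.

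Clk2, the most abundant Clk gene, was tightly grouped in control at 85.1, 84.8 and 83.8 CPM. With CHIR it stood at 95.6, 99.8 and 103 CPM, above each control library. The log2 fold change was 0.23 ± 0.06 (SE; 95% confidence interval 0.11 to 0.36; edgeR adjusted p 0.0236). This call was lost without Control replicate 2 or 3 or CHIR replicate 2 or 3, with edgeR adjusted p values of 0.0593 to 0.0812, and with the feeder covariate at 0.0775, where the log2 fold change was 0.27.

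Clk1 moved the other way. The control libraries held 55.7, 60.3 and 55.9 CPM. With CHIR they held 47.0, 48.7 and 42.9 CPM, all below control. The log2 fold change was -0.31 ± 0.06 (SE; 95% confidence interval -0.45 to -0.18; edgeR adjusted p 0.00724). Without Control replicate 2, its highest control library, the log2 fold change was -0.26 and the adjusted p 0.0534. With the feeder covariate they were -0.36 and 0.0343.

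Clk4, the least abundant member, overlapped between control and each inhibitor group. Its control libraries held 14.5, 15.4 and 13.4 CPM and its CHIR libraries 16.5, 14.6 and 15.4 CPM. The log2 fold change was 0.10 ± 0.09 (SE; 95% confidence interval -0.09 to 0.30; edgeR adjusted p 0.583). Clk4 is the closest relative of Clk1, and the interval of its change lay above that of Clk1; the difference between the genes was not tested.

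The BRD0705 libraries were compared with control in the same way. Inhibition of GSK3α was not measured in these libraries, so the comparison describes the compound at an unstated dose. Of the 5 genes other than Cirbp, 0 passed in the edgeR fit, against 1.22% of all tested genes. Of these genes 1, Clk1, had an unadjusted p under 0.05, against 15.9%, and DESeq2 also called 0. Libraries did not overlap for 2 of the 5, Clk1 and Clk3, against 20.2% of all tested genes. The median log2 fold change of the 5 was -0.12, beside -0.0038 over all tested genes.

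Clk1 came nearest to the threshold under BRD0705, with 50.9, 51.0 and 46.6 CPM, all below control. The log2 fold change was -0.21 ± 0.06 (SE; 95% confidence interval -0.35 to -0.08; edgeR adjusted p 0.106). Correction for GC content and length gave -0.11 and an edgeR adjusted p of 0.469. Clk2 held 96.0, 84.9 and 84.9 CPM with BRD0705, so that BRD0705 replicate 1 stood apart from the other libraries of its group. Its log2 fold change was 0.07 ± 0.06 (SE; 95% confidence interval -0.06 to 0.19; edgeR adjusted p 0.645). Clk3 held 38.1, 38.0 and 39.9 CPM and had a log2 fold change of 0.10 ± 0.06 (SE; 95% confidence interval -0.03 to 0.23; edgeR adjusted p 0.450). Clk4 held 11.8, 14.1 and 13.0 CPM and had a log2 fold change of -0.16 ± 0.09 (SE; 95% confidence interval -0.35 to 0.04; edgeR adjusted p 0.437). The GC and length correction gave 0.0344 for Clk2, 0.0399 for Clk3 and -0.0669 for Clk4.

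**Figure D2:**
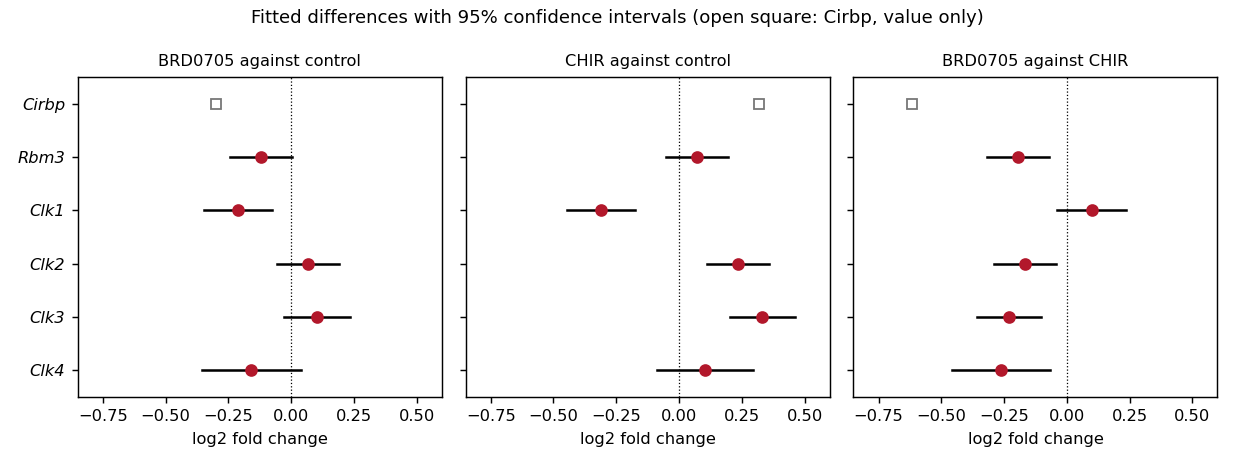
Fitted log2 fold changes of the members in the 3 comparisons (points), with 95% confidence intervals (lines) for the 5 genes that were tested. Cirbp is an open square with its value alone, at -0.30, 0.32 and -0.62. Clk1 lies at -0.31 under CHIR while Clk2 and Clk3 lie at 0.23 and 0.33.

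The inhibitors were set directly against each other. Their doses are not given in the labels, so a difference between them cannot be told apart from a difference in dose. Cirbp was lower with BRD0705 than with CHIR by the widest margin of the 6, with a log2 fold change of -0.62 ± 0.07 (SE), or 0.652 times the CHIR level. This follows from the values that chose the list and was not tested. Of the other 5 genes, 1 passed in the edgeR fit and 4 had an unadjusted p under 0.05, against 7.77% and 22.5% of all tested genes. By direction, 2.97% of all tested genes were called lower and 4.80% higher with BRD0705. Libraries did not overlap for 3 of the 5, Rbm3, Clk3 and Clk4, against 26.7% of all tested genes.

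Clk3 was the gene that passed, lower with BRD0705 by a log2 fold change of -0.23 ± 0.06 (SE; 95% confidence interval -0.36 to -0.10; edgeR adjusted p 0.0280). It lost the call without BRD0705 replicate 1, BRD0705 replicate 2 or CHIR replicate 2, at edgeR adjusted p values of 0.0961, 0.0864 and 0.134, and with scaling to library size only at 0.0679. Rbm3 lay at the threshold, with a log2 fold change of -0.19 ± 0.06 (SE; 95% confidence interval -0.32 to -0.07; edgeR adjusted p 0.0503). It passed under 7 of its 18 alternatives, DESeq2 among them at an adjusted p of 0.0177. Clk2 differed by -0.17 ± 0.06 and Clk4 by -0.26 ± 0.09 on the log2 scale (each ± SE), at adjusted p values of 0.0941 and 0.0974 from edgeR. Clk1 was the only member with the opposite sign, at 0.10 ± 0.07 (SE; 95% confidence interval -0.04 to 0.24; edgeR adjusted p 0.403). With the GC and length correction, Rbm3, Clk2 and Clk3 passed. With that correction and the replicate block together, Clk1, Clk2 and Clk3 passed and Rbm3 did not, and the Clk1 difference was 0.19 (edgeR adjusted p 0.0427).

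**Figure D3:**
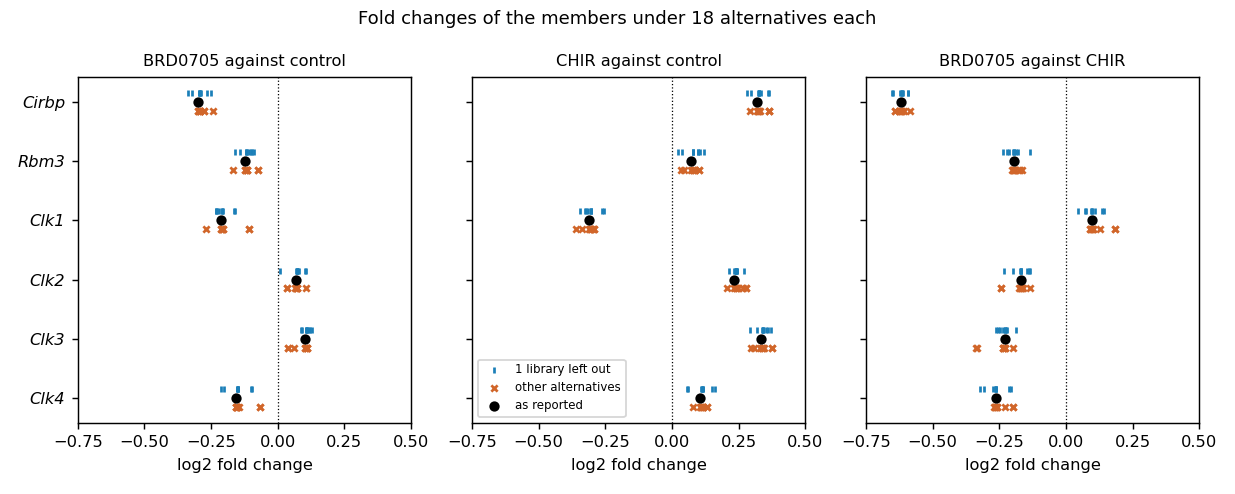
Log2 fold changes of the members as reported (black points), with 1 library left out (blue bars) and under the other alternatives (orange crosses), in the 3 comparisons. All 324 recomputed values keep the sign of the reported value, and Clk2 with BRD0705 comes nearest to 0, at 0.0078 in a fit without 1 library.

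The make-up of the Clk family differed between the groups, with a lower Clk1 share and higher Clk2 and Clk3 shares under each inhibitor. This description was chosen after the values were seen. Clk1 took 34.0 to 35.9% of the summed Clk CPM per kb in control, 30.1 to 32.1% with BRD0705 and 25.0 to 27.7% with CHIR. Clk2 took 42.0 to 43.5% in control, 44.5 to 48.1% with BRD0705 and 46.9 to 50.1% with CHIR. Clk3 took 13.7 to 14.6% in control, 14.7 to 16.5% with BRD0705 and 16.4 to 17.6% with CHIR. For Clk4 the shares were 7.64 to 8.42%, 6.54 to 8.12% and 7.61 to 8.96% in the same order. The Clk1 share therefore did not overlap between any pair of groups. The ratio of Clk1 to Clk3 counts, which does not depend on library size, was 1.50, 1.68 and 1.59 in control, 1.34, 1.34 and 1.17 with BRD0705, and 1.08, 1.01 and 0.964 with CHIR. These shares and ratios are not corrected for GC content, in which the canonical Clk1 and Clk3 transcripts differ (40.9 and 57.95%). With the GC and length correction, the log2 fold changes with BRD0705 moved from -0.21 to -0.11 for Clk1 and from 0.10 to 0.0399 for Clk3, and with CHIR they were -0.29 and 0.38. The summed level of the family ran from 89.3 to 93.5 CPM per kb in control, 86.1 to 92.4 with BRD0705 and 94.4 to 98.0 with CHIR. The ratio of Rbm3 to Cirbp counts was 7.64 to 9.002 in control, 9.08 to 9.56 with BRD0705 and 6.29 to 7.44 with CHIR.

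**Figure D4:**
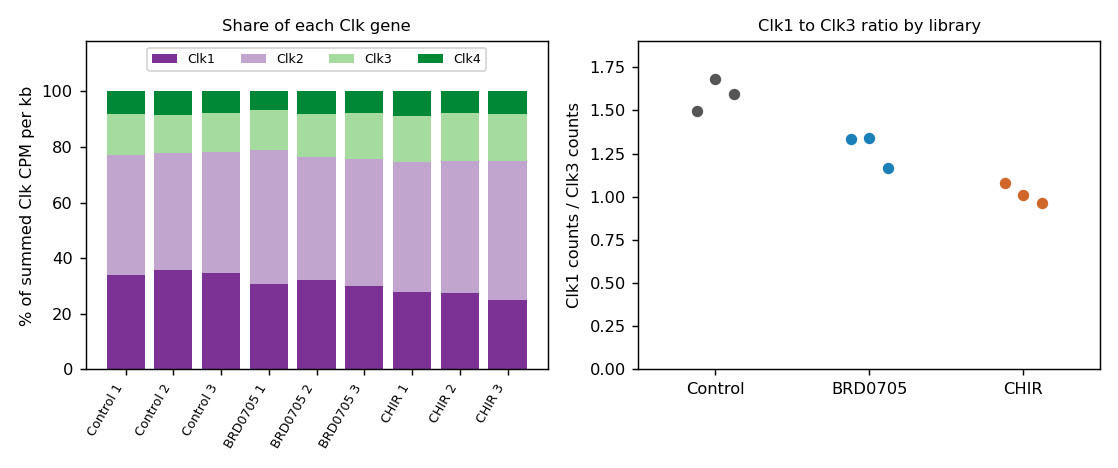
Left, the percentage of the summed Clk CPM per kb that each Clk gene took in each library. Right, the ratio of Clk1 to Clk3 counts per library, at 1.50 to 1.68 in control, 1.17 to 1.34 with BRD0705 and 0.964 to 1.08 with CHIR.

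The genes whose profile was most like that of Cirbp were ranked by the root-mean-square difference between centred log2 CPM over the 9 libraries. Nearest were Eif4a2, an RNA helicase gene of the translation initiation family, at 0.090, Atg12, an autophagy conjugation gene, at 0.090, and Snhg1, a snoRNA host gene, at 0.091. Snhg5, another snoRNA host gene, followed at 0.106, Paip2b, which encodes an inhibitor of the poly(A)-binding protein, at 0.107, and Ythdf1, which encodes a reader of m6A in messages, at 0.110. The median over 15365 genes was 0.296. Eif4a2 stood at a mean of 198 CPM in control, 165 with BRD0705 and 244 with CHIR, and Snhg1 at 28.4, 24.0 and 36.0 CPM. Of the other members, Clk4 was nearest to Cirbp at 0.159, rank 138, followed by Rbm3 at 0.193, rank 659. Clk3 ranked 862, Clk2 1416 and Clk1 9760. These distances describe 9 libraries that share 3 treatments, and all values come from the same libraries.

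**Figure D5:**
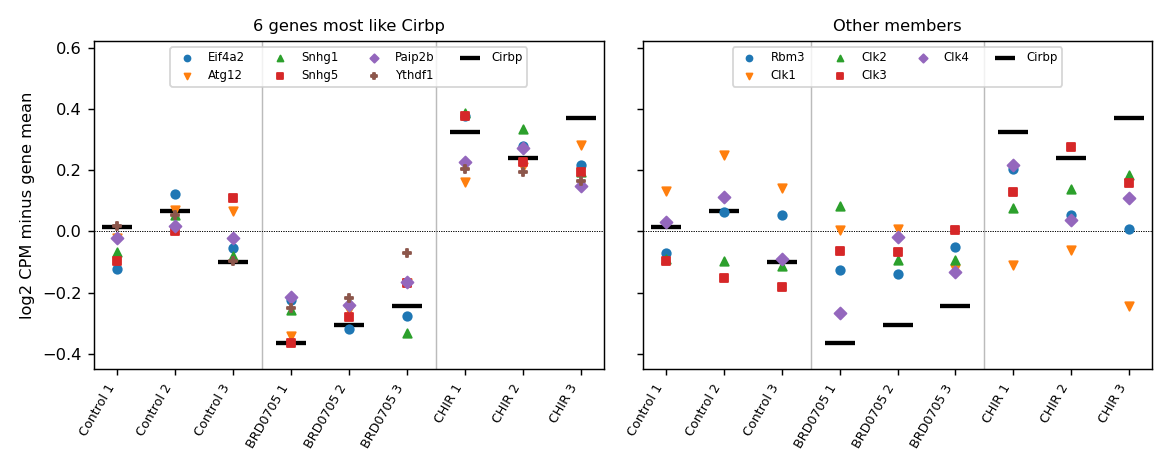
Log2 CPM minus the gene's mean in each of the 9 libraries, for Cirbp (black bars) with the 6 genes most like it on the left and with the other members on the right. The 6 genes lie below 0 in the BRD0705 libraries and above 0 in the CHIR libraries, while Clk1 lies below 0 with CHIR.

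SR proteins, which the Clk kinases phosphorylate, and SR-related splicing proteins such as Luc7l were examined as 1 list of 25 genes, all tested. With BRD0705, 0 passed as higher and 3 as lower, against 0.690% and 0.534% of all tested genes, with a median log2 fold change of -0.11. Srsf5 fell from 222 ± 4.63 to 181 ± 5.96 CPM (log2 fold change -0.29, edgeR adjusted p 0.0118), Srsf9 from 44.9 ± 2.95 to 35.0 ± 1.33 CPM (-0.36, 0.0360) and Srsf3 from 205 ± 11.1 to 176 ± 5.19 CPM (-0.22, 0.0499; SD, n = 3 each). With the GC and length correction 1 passed, Srsf9, and 0 passed with the feeder covariate, or without Control replicate 2, Control replicate 3, BRD0705 replicate 1 or BRD0705 replicate 2.

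With CHIR, 3 SR list genes rose and 2 fell, against 2.52% and 3.78% of all tested genes, with a median log2 fold change of 0.03. Luc7l, a component linked to the U1 snRNP, rose from 74.4 ± 4.42 to 92.7 ± 3.67 CPM (log2 fold change 0.32, edgeR adjusted p 0.0030) and Srsf4 from 110 ± 3.22 to 127 ± 2.11 CPM (0.21, 0.0172). Srsf7 fell from 141 ± 2.93 to 124 ± 3.96 CPM (-0.18, edgeR adjusted p 0.0425) and Srsf3 to 181 ± 2.11 CPM (-0.19, 0.0431; SD, n = 3 each). The gene that rose besides these was Srsf6, at 0.19. Srsf7 passed in 3 of 9 alternatives and 1 of 9 fits without 1 library, and lost its call with the replicate block (edgeR adjusted p 0.0510) and the GC and length correction (0.0565). Srsf3 passed in 6 of 9 and 2 of 9. With the feeder covariate 0 of the 25 passed, and without Control replicate 3 or CHIR replicate 1 Luc7l alone did. Between the inhibitors, 5 of the 25 passed, all lower with BRD0705, where 2.97% of all tested genes were called lower: Luc7l, Srsf5, Tra2b, Srsf10 and Tra2a, by -0.44, -0.22, -0.20, -0.24 and -0.26 on the log2 scale. Tra2b stood at 243 ± 6.04 CPM under BRD0705 against 279 ± 7.57 under CHIR (SD, n = 3 each; edgeR adjusted p 0.0194). Luc7l passed in each of the 18 alternatives of this comparison. Without CHIR replicate 2 it was the only one of the 25 to pass, and 2 passed without BRD0705 replicate 1, BRD0705 replicate 2 or CHIR replicate 1, or with the GC and length correction.

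Kinases related to Clk by family or substrate made a list of 16, of which 15 were tested. With CHIR 1 rose and 0 fell, a share near the 6.30% called over all tested genes. Cdk12, a kinase of the RNA polymerase II tail, rose from 190 ± 2.97 to 259 ± 16.1 CPM (SD, n = 3 each), a log2 fold change of 0.45 ± 0.07 (SE; edgeR adjusted p 0.000548). Against BRD0705, at 205 ± 20.7 CPM, Cdk12 was also higher with CHIR (edgeR adjusted p 0.00462). With BRD0705 against control 0 of the 15 passed by edgeR and 1 had an unadjusted p under 0.05, against 1.22% and 15.9% of all tested genes. DESeq2 called 0 of the list, and 471 of 26762 genes in all. The Srpk, Dyrk and Hipk genes and Prpf4b, Cdk11b and Cdk13 did not pass in any of the 3 comparisons as reported. For CHIR against control, Dyrk1b passed with the GC and length correction, with or without the replicate block, and with DESeq2 size factors in edgeR. It also passed without Control replicate 1, BRD0705 replicate 3 or CHIR replicate 1. Dyrk1b, Hipk2 and Hipk4 passed with no low-count filter, and Hipk4 with only the 2 groups compared. Between the inhibitors, Dyrk1b passed with the GC and length correction, with or without the block, and Dyrk3 without the block.

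Of 16 RNA-binding relatives of Cirbp and Rbm3, all tested, 2 fell with each inhibitor against control and 0 rose, where 0.534% of all tested genes were called lower with BRD0705 and 3.78% with CHIR. Hnrnpa1, an abundant hnRNP gene, passed in both, falling from 918 ± 32.7 CPM to 777 ± 21.1 under BRD0705 and 794 ± 17.7 under CHIR (SD, n = 3 each; edgeR adjusted p 0.0251 and 0.0154). These comparisons share the control libraries. Taf15 fell with BRD0705, from 100.2 ± 3.998 to 82.0 ± 0.246 CPM (edgeR adjusted p 0.0239), and Hnrnpdl fell with CHIR, from 286 ± 18.7 to 224 ± 12.4 CPM (edgeR adjusted p 0.00120; SD, n = 3 each). Between the inhibitors Hnrnpdl and Taf15 passed, where 7.77% of all tested genes were called. Hnrnpdl was higher and Taf15 lower with BRD0705, by 0.31 and -0.24 on the log2 scale. Without Control replicate 2 or 3, or BRD0705 replicate 1 or 2, 0 of the 16 passed for BRD0705 against control, and with the GC and length correction Taf15 alone did. For CHIR, Hnrnpdl alone passed without Control replicate 3, CHIR replicate 2 or CHIR replicate 3 and with the feeder covariate, and 0 passed for BRD0705 with that covariate. Taf15 lost its call between the inhibitors without BRD0705 replicate 1 or 2 or CHIR replicate 1.

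Heat shock genes, here heat shock factors, chaperones and co-chaperones, made a list of 16, all tested. Bag3, a co-chaperone gene, rose from 62.1 ± 4.59 CPM to 81.3 ± 8.79 under BRD0705 and 79.6 ± 2.52 under CHIR (SD, n = 3 each; edgeR adjusted p 0.0161 and 0.00698). Hspe1, the mitochondrial chaperonin cofactor, fell with BRD0705 from 154 ± 8.27 to 124 ± 6.62 CPM (SD, n = 3 each; edgeR adjusted p 0.0274). The other 14 passed in no comparison with control as reported. The 2 calls for BRD0705 stand against 1.22% of all tested genes, and the 1 call for CHIR is near the 6.30% called over all tested genes. Between the inhibitors 0 of the 16 passed by edgeR and 4 had an unadjusted p under 0.05, against 7.77% and 22.5% of all tested genes. DESeq2 called 2 of the list, and 1022 of 26762 genes in all. For BRD0705 against control 0 passed with the feeder covariate or without Control replicate 2 or 3 or BRD0705 replicate 1 or 2, and with the GC and length correction Bag3 alone did. DESeq2 called Hsp90aa1 and Hspb1 besides these for BRD0705, and Hsp90aa1 also passed with no low-count filter or without Control replicate 1. For CHIR 0 passed with the feeder covariate. Hsf1 joined Bag3 with DESeq2, with no low-count filter and without BRD0705 replicate 3 or CHIR replicate 1. With the GC and length correction, with or without the replicate block, Hsf1, Hspb1 and Bag3 passed.

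The members share annotated features. In GENCODE vM39 (GRCm39), each of the 6 has both a transcript annotated as a target of nonsense-mediated decay and a transcript with a retained intron, as do 33.5% of 21770 protein-coding genes. That share was not matched for the number of annotated transcripts, which runs from 12 for Clk2 to 72 for Rbm3. Clk4 has 38 decay-annotated transcripts of 57, Rbm3 40 of 72 and Clk1 9 of 22, while Clk2 has 1 of 12. Counts per gene symbol do not separate these isoforms from the coding ones. The canonical transcripts of Clk2 and Clk3, which rose with CHIR, have a GC content of 55.98 and 57.95%, and that of Clk1, which fell, 40.9%. Cirbp lies between at 53.7%. Rbm3 at 41.9% and Clk4 at 43.3% lie near Clk1, but their log2 fold changes under CHIR were 0.07 and 0.10, which did not pass. With the GC and length correction the log2 fold changes under CHIR were 0.28 for Clk2, 0.38 for Clk3 and -0.29 for Clk1, and all 3 passed.

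Reads of overlapping genes could enter these counts, since the use of strand is not stated. Clk3 overlaps exons of Edc3 on the opposite strand. Edc3, a decapping factor gene, had group means of 54.5 ± 2.77, 54.3 ± 0.531 and 54.4 ± 3.50 CPM (SD, n = 3 each) in control, BRD0705 and CHIR libraries. Rbm3 overlaps Rbm3os, which had 9 to 27 counts per library, and Rbm3-ps, a pseudogene row, had 1 to 11, against 3869 to 5592 for Rbm3. By GENCODE, exons of Clk4 overlap those of Gm55882 on the same strand and of Msantd5l on the opposite strand, Cirbp overlaps Gm67261 and Gm67271, and Clk2 overlaps Gm64550. These genes, and Gm32510 opposite Clk3, were not analysed here. By position on GRCm38, the RefSeq genes lie at chr10:80165990-80172786 for Cirbp, chrX:8138975-8145880 for Rbm3, chr1:58411988-58424088 for Clk1, chr3:89164795-89177087 for Clk2, chr9:57750621-57766235 for Clk3 and chr11:51263114-51281770 for Clk4, so no 2 members are neighbours.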

How the data were processed

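Read counts per gene symbol, whole numbers, were used as the authors deposited them. RSEM, DESeq2 and mm10 appear in the submitters' processing notes with no role given; if RSEM made the counts they are rounded estimates. The aligner, annotation and use of strand are not given in the sources used here. The labels give polyA RNA as the molecule but a kit that depletes ribosomal RNA, and it was not resolved which applies. Each library's description gave its group and replicate number. The members, the gene lists and the tests were chosen with earlier results of these data known.

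The test was that of edgeR 4.0.16, run in R 4.3.3 (TMM scaling, filterByExpr with a minimum count of 10, quasi-likelihood F test, all 9 libraries in 1 fit of group means, 6 residual degrees of freedom), 2-sided, with Benjamini-Hochberg adjustment over 15366 genes and a threshold of 0.05. Standard errors were taken as the size of the log2 fold change over the root of F. Log2 CPM used a prior count of 2. Simulated counts for BRD0705 against control had 200 genes changed among 15194 tested. There, 100% of changes of 1 and 91% of changes of 0.5 on the log2 scale were recovered, and 5.45% of calls were false. Most changes reported here are smaller. The simulation used each gene's fitted spread and held no GC trend and no feeder difference between libraries. Its rate of false calls therefore does not carry over to these data. All 9 pairs of libraries within groups differed beyond sampling noise (chi-square per degree of freedom 3.37 to 7.89).

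GC content and length came from GENCODE vM39 by symbol, for 97.6% of tested genes. Coordinates and promoters are from RefSeq on GRCm38.p6, the build that mm10 names. The genes named are the members, up to 4 list genes with the lowest adjusted p per list and comparison, and the 6 genes nearest to Cirbp. Srsf6, Tra2a, Dyrk1b, Dyrk3, Hipk2, Hipk4, Hsf1, Hspb1, Hsp90aa1 and the overlapping genes were named after their values were seen. Alternatives were the replicate block, DESeq2 1.42.0, edgeR with its size factors, scaling by library size alone, no filter, only the groups compared, each library left out, a spline correction for GC content and length, and the mean log2 CPM of the feeder markers as a covariate. The deposited normalized table was not used here.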

Additional observations from a re-analysis of the deposited data

How the results depend on the processing

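The sign of each member's fold change was kept in all 324 recomputed values (6 genes, 3 comparisons, 18 alternatives each); 302 kept their side of the threshold or, for Cirbp, moved by less than the spread between replicates, 11 lost a call and 11 gained one. For BRD0705 against control, 0 of the 5 tested members passed under each alternative. For CHIR against control, where 3 passed, the feeder covariate left 1 (Clk1) and the fits without 1 library gave 1 to 3, with 1 (Clk3) without Control replicate 2. For BRD0705 against CHIR, where 1 passed, 2 passed with DESeq2, with its size factors, with no low-count filter and with the feeder covariate, 3 with the GC and length correction, and 0 with library size only; without 1 library the count was 0 to 2, with 0 without BRD0705 replicate 2 or CHIR replicate 2. After each gene's group mean was subtracted from its log2 CPM, same-numbered libraries had correlations of -0.0897 to 0.0802 over 9 pairs. Pairs with different numbers were not compared with these, so whether the numbers pair the samples was not settled. With the replicate block, 0, 3 and 1 members passed in the 3 comparisons, and over all genes 222, 973 and 1177 against 188, 968 and 1194. The block with the GC and length correction gave 0, 3 and 3 members, the last being Clk1, Clk2 and Clk3, where the correction alone gave Rbm3, Clk2 and Clk3. The causes of these changes were not tested. Counts over the gene lists varied more. The list of SR and SR-related proteins ranged from 0 to 7 for BRD0705, 0 to 5 for CHIR and 1 to 7 between inhibitors. RNA-binding relatives ranged from 0 to 6 for BRD0705 and 1 to 3 in the other comparisons. Heat shock genes ranged over 0 to 4, 0 to 3 and 0 to 2, and Clk-related kinases over 0, 1 to 4 and 1 to 3. Over all genes the count for BRD0705 against control ranged from 11 with the feeder covariate to 609 with no filter, with 471 by DESeq2, 110 with the GC and length correction and 21 to 305 without 1 library; that for CHIR against control ranged from 314 with the feeder covariate to 1537 with the GC and length correction and was 514 to 1070 without 1 library, and that between inhibitors was 616 to 1313 without 1 library. Depth limits Clk4 most, with 221 to 332 counts per library.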
